A study of Mus musculus with 2 samples.

Results

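The expression of 8 genes of the tumor necrosis factor (TNF) superfamily, which encode costimulatory molecules of T cells, was followed in islet T cells of NOD mice, an autoimmune diabetes model. The 5 receptors were *Tnfrsf9* (CD137, also called 4-1BB), *Tnfrsf4* (OX40), *Tnfrsf18* (GITR), *Tnfrsf1b* (TNFR2) and *Cd27*, and the 3 ligands were *Tnfsf8* (CD30 ligand), *Tnfsf11* (RANKL) and *Cd40lg* (CD40 ligand). They were taken by symbol from the 27998 genes in the count tables. One droplet library (Chromium 3′ version 2 chemistry) was made per genotype, with NOD.*Foxp3*-*eGFP* mice as the wild type. The knockout was NOD.*Tnfrsf9*-/-.*Foxp3*-*eGFP*, a strain without CD137 in any of its cells. Each library held pooled islet cells from 6 females of 9 to 10 weeks, before diabetes, so the 6 mice of a genotype cannot be told apart. CD8 T cells and GFP+ CD4 T cells, which report *Foxp3* through the eGFP allele that both strains carry, had been sorted and sequenced together. With 1 library per genotype, no test between genotypes was possible. The intervals given are at 95% and cover counting error only, not the spread between mice. Those on summed counts take each count as independent, so they also leave out the spread between cells.

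Receptors of this family are engaged by ligands of the same superfamily and recruit TRAF adaptor proteins, which lead to NF-κB activation, survival and expansion of the T cell. CD137, OX40, GITR and TNFR2 are induced or increased by antigen receptor signals, are carried by many regulatory T cells (Tregs) and appear on conventional T cells after activation, whereas CD27 is already present on resting T cells. CD40 ligand licenses B cells and dendritic cells through CD40, RANKL acts on dendritic cells and osteoclast precursors, and CD30 ligand acts on activated lymphocytes through CD30.

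Cells were assigned to 2 lineages by their own transcripts. A CD8 T cell had at least 2 unique molecular identifiers (UMIs) of *Cd8a* and *Cd8b1* and none of *Cd4* or *Foxp3*. A Treg had no *Cd8a* or *Cd8b1* UMI and at least 1 of *Cd4*, *Foxp3*, *Il2ra* or *Ikzf2*. The wild-type library gave 1552 Tregs and 891 CD8 T cells, and the knockout library 1444 and 1200. The classes held 7014920 to 8888924 UMIs each, with a median of 4302 to 6076 UMIs per cell. In each library 271 cells fell in neither class, and 16 barcodes occurred in both libraries. *Cd3e* was detected in 92.1% to 97.3% of the cells of each class, and *Ikzf2*, a Treg transcription factor that the assignment also used, in 95.4% of the wild-type Tregs and 93.6% of those of the knockout. *Ctla4*, a Treg-associated inhibitory receptor that the assignment did not use, was detected in 94.6% and 93.6% of these Tregs, and in 65.1% and 50.4% of the CD8 T cells. *Foxp3* itself had a UMI in 13.2% of the Tregs of the wild-type library and 19.5% of those of the knockout. Cells with UMIs of at least 2 genes of a list for B cells, myeloid cells, NK cells, acinar cells, endocrine cells, endothelial or stromal cells, or erythroid cells made up at most 1.59% of any class. The part of such cells in the results was not tested.

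Of the 8 genes, 5 lie on chromosome 4, among them 4 of the 5 receptors. In GRCm38, *Tnfrsf4* (chr4:156013843-156016612) and *Tnfrsf18* (chr4:156026164-156028895) lie on the plus strand, separated by 9551 bases. *Tnfrsf9* (chr4:150914562-150946102) is on the plus strand, and *Tnfrsf1b* (chr4:145213463-145246870) and *Tnfsf8* (chr4:63831308-63861347) are on the minus strand. *Cd27* (chr6:125232622-125237010) and *Tnfsf11* (chr14:78277445-78308043) are also on the minus strand, and *Cd40lg* (chrX:57212143-57224042) is on the plus strand. All are protein-coding, and no other gene of the tables overlaps them on the same strand. On the opposite strand *Tnfrsf9* overlaps *Camta1*, *Tnfrsf18* overlaps *Gm16008* and *Cd27* overlaps *Vamp1*. The promoters of *Tnfrsf9* and of the genes that varied with it in Tregs are shown, together with that of *Tnfsf8*, which varied the other way. Each sequence is from RefSeq (GRCm38.p6), runs 5′ to 3′ on the strand of the gene, and covers 250 bases before and 50 bases from the annotated start. Capitals mark matches, on either strand, to a κB-type pattern (GGG, any 5 bases, CC) or the AP-1 letters TGANTCA, which do not overlap each other.
*Tnfrsf9*, upstream start (chr4:150919905-150920204): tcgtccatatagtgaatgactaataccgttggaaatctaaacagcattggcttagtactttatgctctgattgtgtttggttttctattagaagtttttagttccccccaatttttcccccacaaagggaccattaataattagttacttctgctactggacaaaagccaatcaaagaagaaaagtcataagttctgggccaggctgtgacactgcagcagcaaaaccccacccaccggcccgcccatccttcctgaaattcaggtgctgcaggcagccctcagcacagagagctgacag
*Tnfrsf9*, downstream start (chr4:150927749-150928048): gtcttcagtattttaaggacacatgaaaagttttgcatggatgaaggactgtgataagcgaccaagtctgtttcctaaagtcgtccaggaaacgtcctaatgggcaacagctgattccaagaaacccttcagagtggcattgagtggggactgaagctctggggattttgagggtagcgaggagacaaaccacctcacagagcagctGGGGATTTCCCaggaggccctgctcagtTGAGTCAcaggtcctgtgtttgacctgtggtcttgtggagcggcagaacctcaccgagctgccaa
*Tnfrsf4* (chr4:156013445-156013744): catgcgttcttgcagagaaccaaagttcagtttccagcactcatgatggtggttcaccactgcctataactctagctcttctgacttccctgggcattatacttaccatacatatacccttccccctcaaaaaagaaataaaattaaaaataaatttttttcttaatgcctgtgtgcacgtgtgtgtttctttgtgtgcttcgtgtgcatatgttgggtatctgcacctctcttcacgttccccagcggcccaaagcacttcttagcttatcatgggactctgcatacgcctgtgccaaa
*Tnfrsf18* (chr4:156026072-156026371): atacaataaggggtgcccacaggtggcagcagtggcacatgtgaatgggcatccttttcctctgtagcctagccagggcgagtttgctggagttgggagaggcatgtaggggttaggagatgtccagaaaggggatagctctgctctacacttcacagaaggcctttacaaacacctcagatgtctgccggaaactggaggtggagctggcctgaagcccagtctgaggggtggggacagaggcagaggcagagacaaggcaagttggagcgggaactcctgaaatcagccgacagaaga
*Tnfrsf1b* (chr4:145246821-145247120): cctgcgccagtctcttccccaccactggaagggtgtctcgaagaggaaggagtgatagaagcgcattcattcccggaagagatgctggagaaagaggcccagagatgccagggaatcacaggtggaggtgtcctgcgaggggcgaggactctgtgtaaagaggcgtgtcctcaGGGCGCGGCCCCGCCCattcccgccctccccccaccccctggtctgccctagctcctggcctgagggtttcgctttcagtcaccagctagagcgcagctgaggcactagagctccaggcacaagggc
*Tnfsf8* (chr4:63861235-63861534): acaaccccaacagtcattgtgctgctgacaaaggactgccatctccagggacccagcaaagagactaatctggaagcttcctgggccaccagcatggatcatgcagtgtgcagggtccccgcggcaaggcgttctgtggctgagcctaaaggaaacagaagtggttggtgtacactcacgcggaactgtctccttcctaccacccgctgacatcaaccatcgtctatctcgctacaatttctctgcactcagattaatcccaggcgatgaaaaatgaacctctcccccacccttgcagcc

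The downstream *Tnfrsf9* window holds a run GGGGATTTCCC that matches the κB-type pattern from 43 bases before the start, and the AP-1 match TGAGTCA from 15 bases before it. *Tnfrsf1b* holds overlapping κB-type matches from 77 bases before its start. No match lies in the windows of *Tnfrsf4*, *Tnfrsf18* and *Tnfsf8*, nor in the upstream *Tnfrsf9* window. Promoter windows were listed for 7 of the 8 genes, and 4 of these 7 hold a κB-type match, *Cd27* and *Tnfsf11* being the others. Over all 32851 windows of the same length, 50.8% hold a κB-type match and 7.81% an AP-1 match, so the share among these genes is close to that of all windows. A match describes letters only.

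*Tnfrsf9* was read first in each library, as the targeted gene. Wild-type Tregs held 2993 *Tnfrsf9* UMIs (337 counts per 1000000 UMIs of the class, or CPM, with an exact Poisson interval of 325 to 349), and knockout Tregs 898 (110.1 CPM, 103 to 118). Wild-type CD8 T cells held 747 UMIs (106.5 CPM, 99.0 to 114) and knockout CD8 T cells 253 (31.99 CPM, 28.2 to 36.2). The knockout was therefore lower in both lineages, and in neither lineage was the transcript at 0. The log2 ratio of knockout over wild type was -1.61 in Tregs (exact conditional interval -1.72 to -1.50) and -1.73 in CD8 T cells (-1.95 to -1.53). It ranked 11402 from the top of 11428 genes in Tregs and 11030 of 11083 in CD8 T cells. The libraries read the 3′ ends of transcripts, and the part of the gene that this allele lacks is not given in the sources used here. A UMI in the knockout is thus counted as *Tnfrsf9* RNA and not as CD137 protein. A positive cell held a mean of 3.84 *Tnfrsf9* UMIs in wild-type Tregs and 2.10 in knockout Tregs, and 3.11 and 1.78 in CD8 T cells.

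Wild-type Tregs had the higher level of all 8 genes when compared with wild-type CD8 T cells. All 8 genes were at least 1.5-fold higher in Tregs, against 19.4% of the 11297 genes with at least 20 UMIs over both classes, and the median log2 ratio was 1.75 over the 8 genes and 0.12 over all genes. In the knockout 6 of the 8 were past 1.5-fold, against 17.5% of genes, with medians of 1.82 and 0.15. None was 1.5-fold lower in Tregs, against 8.78% and 8.39% of genes. Scaling the classes by edgeR's TMM factors moved the median of all genes to 0.02 and 0.01, with 15.96% and 12.97% of genes higher and 10.74% and 10.89% lower, and then 6 and 5 of the 8 genes were past 1.5-fold higher, without *Cd27* and *Tnfsf8* in the wild type and also without *Tnfsf11* in the knockout.

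OX40, which sustains T cell survival after priming, was the receptor that separated the lineages most. *Tnfrsf4* stood at 1314 CPM in wild-type Tregs (1291 to 1338), 976 in knockout Tregs (954 to 997), 76.8 in wild-type CD8 T cells (70.5 to 83.6) and 50.1 in knockout CD8 T cells (45.3 to 55.3). None of these 4 intervals overlaps another. The log2 ratio of Tregs over CD8 T cells was 4.10 (3.97 to 4.22) for the wild type and 4.28 (4.14 to 4.43) for the knockout, which ranked 83 of 11297 and 50 of 11419 genes. In CD8 T cells the transcript was held by few cells: the 10 cells with the most *Tnfrsf4* UMIs held 41.0% of them in wild-type and 39.65% in knockout cells, against 5.20% and 6.64% in Tregs.

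GITR, a costimulatory receptor that most Tregs carry, followed the same order between lineages. *Tnfrsf18* stood at 566 CPM in wild-type Tregs (551 to 582), 497 in knockout Tregs (482 to 512), 88.2 in wild-type CD8 T cells (81.4 to 95.5) and 87.1 in knockout CD8 T cells (80.7 to 93.9). The intervals of the CD8 T cells overlap, and those of the Tregs do not. Tregs over CD8 T cells gave a log2 ratio of 2.68 for the wild type (2.56 to 2.80) and 2.51 for the knockout (2.39 to 2.63).

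TNFR2, the receptor for TNF that T cells use for survival and expansion, was next. *Tnfrsf1b* stood at 280.1 CPM in wild-type Tregs (269 to 291), 236 in knockout Tregs (226 to 247), 77.8 in wild-type CD8 T cells (71.4 to 84.7) and 65.0 in knockout CD8 T cells (59.5 to 70.9). No neighbouring intervals overlap, and the knockout was the lower one in each lineage. The ratio between lineages was 1.85 on the log2 scale for the wild type (1.71 to 1.98) and 1.86 for the knockout (1.72 to 2.0). *Tnfrsf9* itself had a ratio of 1.66 (1.54 to 1.78) and 1.78 (1.58 to 1.99). Its levels in knockout Tregs and in wild-type CD8 T cells, the second and the third in its order, overlap.

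*Cd27* encodes the receptor for CD70 and was the receptor shared most evenly by the lineages. It stood at 464 CPM in wild-type Tregs (450.1 to 479), 396 in knockout Tregs (382.5 to 410.0), 306.5 in wild-type CD8 T cells (294 to 320) and 279 in knockout CD8 T cells (267 to 290.4). None of these intervals overlaps. The log2 ratio of Tregs over CD8 T cells was 0.60 for the wild type (0.52 to 0.67) and 0.51 for the knockout (0.43 to 0.59), so it was past 1.5-fold only in the wild-type library.

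The ligands did not share 1 order of the classes. *Tnfsf8* stood at 57.6 CPM in wild-type Tregs (52.7 to 62.8), 49.9 in knockout Tregs (45.2 to 55.0), 38.2 in wild-type CD8 T cells (33.8 to 43.1) and 60.95 in knockout CD8 T cells (55.6 to 66.6). The knockout CD8 T cells were the highest of the 4, overlapping wild-type Tregs, and the wild-type CD8 T cells were the lowest, apart from all others. Tregs over CD8 T cells therefore gave a log2 ratio of 0.59 (0.38 to 0.81) for the wild type and -0.29 (-0.48 to -0.09) for the knockout.

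RANKL and CD40 ligand transcripts were both higher in Tregs. *Tnfsf11* had 204 and 205 UMIs in wild-type and knockout Tregs, and 92 and 128 in CD8 T cells. These are 22.95 (19.9 to 26.3), 25.1 (21.8 to 28.8), 13.1 (10.6 to 16.1) and 16.2 CPM (13.5 to 19.2). The genotypes overlap within each lineage, and the lineages do not overlap within a genotype. *Cd40lg*, best known from conventional helper T cells, had 116 UMIs in wild-type Tregs (13.1 CPM, 10.8 to 15.7) and 158 in knockout Tregs (19.4 CPM, 16.5 to 22.7), against 9 and 8 UMIs in CD8 T cells. The log2 ratio between lineages was 3.35 (2.37 to 4.51) and 4.26 (3.25 to 5.50), on those few CD8 UMIs.

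**Figure D1:**
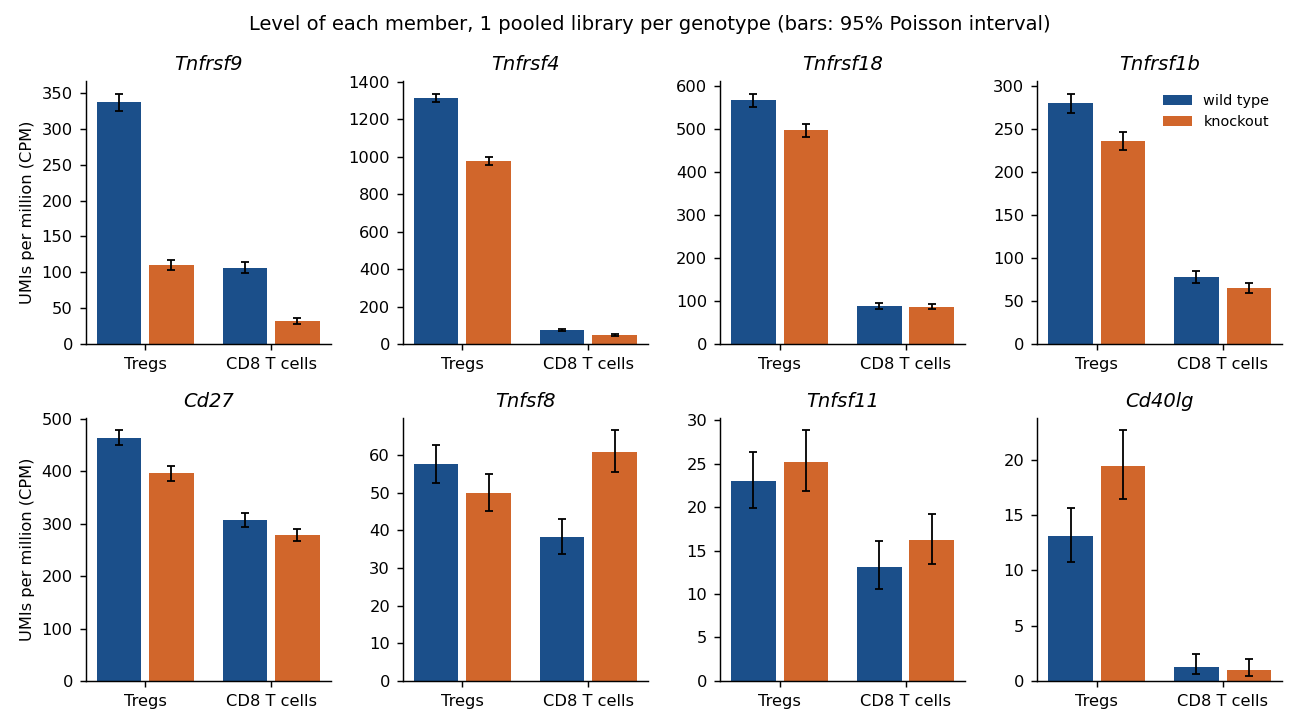
Level of each of the 8 genes in CPM (vertical axis, from 0) in Tregs and CD8 T cells of the wild-type (blue) and knockout (orange) library, with 95% Poisson intervals. Tnfrsf4 stands at 1314 and 976 in Tregs and below 100 in CD8 T cells, and Tnfsf8 is the only panel in which knockout CD8 T cells (60.95) are the highest class.

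Shares of cells were read after all cells had been thinned to 2000 UMIs each. Shallower cells, 76 and 55 Tregs and 17 and 16 CD8 T cells of wild type and knockout, were left out of this. A *Tnfrsf4* UMI was then found in 72.6% of wild-type Tregs (Clopper-Pearson interval 70.3 to 74.9) and 61.5% of knockout Tregs (58.9 to 64.05), and in 7.32% and 5.24% of CD8 T cells. The unthinned shares were 83.6%, 77.2%, 20.3% and 14.25%. *Tnfrsf9* was found in 35.2% of thinned wild-type Tregs (32.8 to 37.7), 16.5% of knockout Tregs (14.6 to 18.5), 12.01% of wild-type CD8 T cells (9.93 to 14.4) and, in the knockout, 4.05% (3.004 to 5.34), and unthinned in 50.2%, 29.6%, 26.9% and 11.8%. The libraries hold sorted T cells, so no cell type that should lack *Tnfrsf9* was there to give a background share. Not every gene kept the order of its CPM in these shares. *Tnfsf8* was found in 7.18% of thinned wild-type Tregs (5.92 to 8.62), 7.70% of knockout Tregs (6.36 to 9.23), 6.75% of wild-type CD8 T cells (5.18 to 8.62) and, in the CD8 T cells of the knockout library, 9.63% (8.01 to 11.45), and unthinned in 11.3%, 10.4%, 15.0% and 23.7%. All of these thinned intervals overlap each other, so for *Tnfsf8* neither the genotypes nor the lineages were separated by thinned shares. The unthinned intervals of wild-type (12.75 to 17.6) and knockout CD8 T cells (21.3 to 26.2) do not overlap. Thinned CD8 T cells with *Tnfrsf18* made up 14.65% for the wild type and 15.8% for the knockout, with overlapping intervals, and unthinned ones 43.2% and 39.3%. In thinned Tregs the genotypes also overlap for *Tnfrsf18* (59.7 to 64.7 and 56.1 to 61.35) and *Cd27* (58.2 to 63.2 and 53.0 to 58.3). Those of *Tnfrsf1b* do not overlap in Tregs (33.86 to 38.8 and 28.9 to 33.83).

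Between genotypes, the receptors other than *Tnfrsf9* differed by less than the targeted gene and mostly in its direction. In Tregs the 4 other receptors were lower in the knockout, each with an interval below 0. The log2 ratio of knockout over wild type was -0.43 for *Tnfrsf4* (-0.47 to -0.39), -0.25 for *Tnfrsf1b* (-0.33 to -0.16), -0.23 for *Cd27* (-0.30 to -0.16) and -0.19 for *Tnfrsf18* (-0.25 to -0.13). None of these is past 1.5-fold. Only *Tnfrsf9*, the targeted gene and 1 of the 8, was past 1.5-fold lower, against 3.62% of 11428 genes, and 0 were past it higher, against 6.93%. None of the genes that were not targeted was thus past it. The median log2 ratio was -0.22 over the 8 genes, *Tnfrsf9* included, and 0.04 over all genes. Other T cell genes were lower in the same knockout Tregs. *Cd3d*, *Cd3e* and *Cd3g*, which encode chains of the T cell receptor complex, stood at 1109, 1030 and 1620 CPM for the wild type and 960.4, 745 and 1359 CPM for the knockout. Of the 8 genes of the Treg list, *Cd4*, *Ctla4*, *Ikzf4* and *Izumo1r* were at a lower CPM in the knockout and *Foxp3*, *Gpr83*, *Ikzf2* and *Il2ra* at a higher one. Of the CD8 list, *Ccl5* was at 544.5 and 266 CPM (in 51.0% and 32.1% of Tregs), *Nkg7* at 493 and 361 CPM and *Gzmk* at 30.6 and 13.25 CPM, with *Cd8a* and *Cd8b1* at 0 by the assignment. The part of these differences in the receptor ratios was not tested.

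Among CD8 T cells, 2 of the 7 genes with enough UMIs were past 1.5-fold lower in the knockout, against 8.2% of 11083 genes, and 1 was past it higher, against 13.7%. The 2 lower ones were *Tnfrsf9*, the targeted gene, and *Tnfrsf4*, the latter with a log2 ratio of -0.62 (-0.81 to -0.43). Among the genes that were not targeted, *Tnfrsf4* was thus the only one past 1.5-fold lower. *Tnfrsf1b* stood at -0.26 (-0.44 to -0.08) and *Cd27* at -0.14 (-0.22 to -0.05), while the interval of *Tnfrsf18* includes 0, at -0.02 (-0.18 to 0.14). When cells with 2 or more UMIs of the proliferation genes *Mki67*, *Top2a*, *Birc5*, *Cdk1* and *Ube2c* were left out, *Tnfrsf4* in CD8 T cells stood at -1.03. It stood at -1.02 when each cell was given equal weight. With no filter on cells, the count of genes past 1.5-fold lower was 1. The thinned shares of CD8 T cells with *Tnfrsf4* have intervals that overlap between genotypes (5.685 to 9.255 and 4.04 to 6.66).

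Ligands did not follow the receptors. *Tnfsf8* was the gene past 1.5-fold higher in knockout CD8 T cells, at 0.67 (0.46 to 0.89). It was lower in knockout Tregs by summed UMIs, at -0.21 (-0.40 to -0.02), but not by the thinned share of cells. The *Tnfsf8* ratio in CD8 T cells was 0.23 without cells that had 2 or more proliferation UMIs, so its place past 1.5-fold depends on them. After thinning, such cells were 12.9% of wild-type and 6.08% of knockout CD8 T cells, and 7.18% and 7.70% of Tregs. Effector genes of CD8 T cells also differed between the libraries, with a UMI of the chemokine gene *Ccl5* in 82.4% of wild-type and 54.7% of knockout CD8 T cells and of the granzyme gene *Gzmk* in 42.9% and 13.25% (unthinned). The part of these effector genes in the ratios was not tested. *Cd40lg* was higher in knockout Tregs, at 0.57 (0.22 to 0.93), just short of 1.5-fold. *Tnfsf11* had intervals that include 0 in both lineages, with ratios of 0.13 (-0.15 to 0.42) in Tregs and 0.30 (-0.09 to 0.71) in CD8 T cells.

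**Figure D2:**
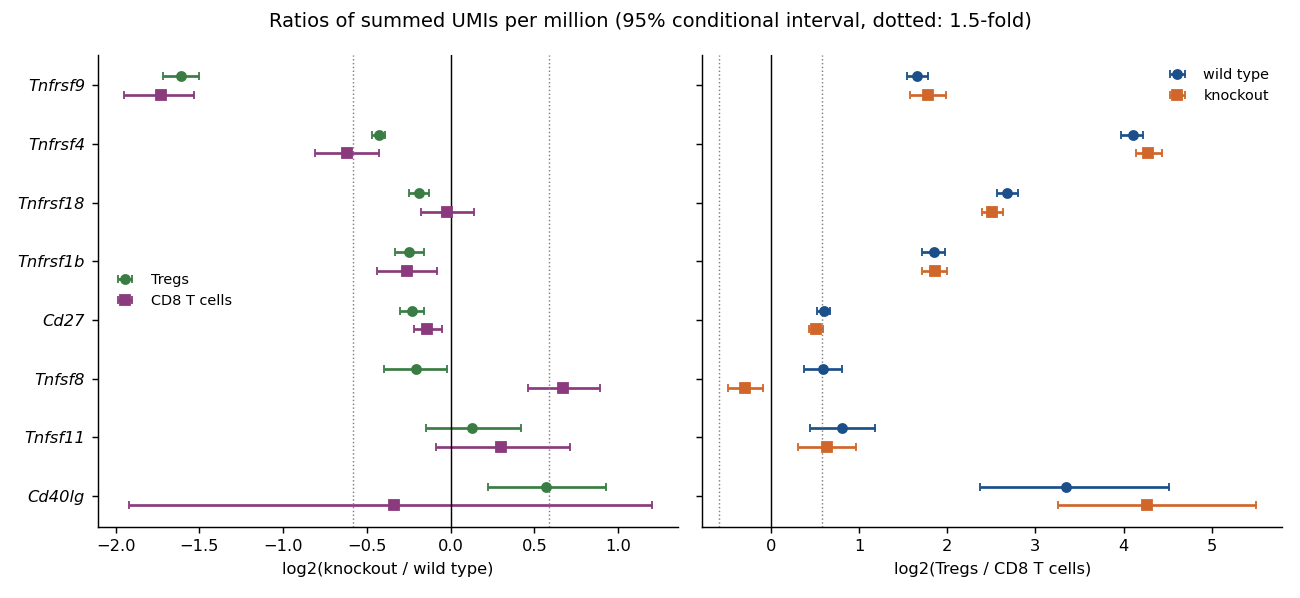
Log2 ratios of summed counts in CPM with 95% conditional intervals for the 8 genes, at left knockout over wild type in Tregs (circles) and CD8 T cells (squares), at right Tregs over CD8 T cells in the wild type (circles) and knockout (squares). Dotted lines mark 1.5-fold, and Cd40lg in CD8 T cells rests on 9 and 8 UMIs. The receptors lie at or left of 0 in the left panel, and Tnfsf8 lies at -0.21 and 0.67 on either side of it.

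Co-expression with *Tnfrsf9* was read cell by cell after thinning every cell to 2000 UMIs. In wild-type Tregs, 520 cells were *Tnfrsf9*-positive and 956 negative. The positive cells had more *Tnfrsf4*, *Tnfrsf1b* and *Tnfrsf18* RNA and less *Tnfsf8* RNA than the negative cells. Of the 7 other genes, 3 were past 1.5-fold higher in positive cells, against 8.67% of 8770 genes, and 1 was past it lower, against 8.99%. Without thinning only *Tnfrsf4* remained past 1.5-fold higher, at 0.98, with *Tnfrsf1b* at 0.58 and *Tnfrsf18* at 0.51, and *Tnfsf8* and *Cd40lg* were past it lower.

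A *Tnfrsf4* UMI was found in 87.3% of positive and 64.6% of negative wild-type Tregs, a difference of 22.7 percentage points (Newcombe interval 18.35 to 26.7). For *Tnfrsf1b* the shares were 49.8% and 29.0%, a difference of 20.8 points (15.6 to 25.9), and for *Tnfrsf18* 72.3% and 56.7%, a difference of 15.6 points (10.55 to 20.5). Each of these 3 intervals lies above 0. On the scale of summed UMIs the log2 ratios of positive over negative cells were 1.20 for *Tnfrsf4* (1.11 to 1.30), 1.04 for *Tnfrsf1b* (0.85 to 1.23) and 0.78 for *Tnfrsf18* (0.64 to 0.91). *Cd27*, with shares of 64.6% and 58.6%, stood at 0.30 (0.15 to 0.45).

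*Tnfsf8* went the other way. It was found in 5.19% of positive and 8.26% of negative wild-type Tregs, and its log2 ratio was -0.83 (-1.29 to -0.38). *Tnfsf11* (-0.33, -1.13 to 0.41) and *Cd40lg* (-0.56, -1.56 to 0.35) had intervals that include 0. Before thinning, positive Tregs held a median of 5024 UMIs and negative ones 4114. Unthinned shares of *Tnfrsf4* were 95.4% and 71.8%, and those of *Tnfrsf18* 90.5% and 69.9%.

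In knockout Tregs with residual *Tnfrsf9* RNA, *Tnfrsf4* and *Tnfrsf1b* were the receptors past the threshold. There 229 thinned cells were positive and 1160 negative. *Tnfrsf4* was found in 81.7% of positive and 57.5% of negative cells, a difference of 24.2 points (18.0 to 29.5), and *Tnfrsf1b* in 48.0% and 28.0%, a difference of 20.02 points (13.1 to 26.9). These 2 genes were past 1.5-fold higher, against 9.47% of 8676 genes, with log2 ratios of 0.95 (0.82 to 1.07) and 0.92 (0.66 to 1.17). Without thinning they stood at 0.88 and 0.57, the latter short of 1.5-fold. *Tnfrsf18* was found in 63.8% and 57.8%, a difference of 6.0 points whose interval includes 0 (-1.0 to 12.6), and its ratio was 0.42 (0.23 to 0.61), short of 1.5-fold. *Cd27* (0.10, -0.12 to 0.32) and *Tnfsf8* (0.14, -0.45 to 0.69) had intervals that include 0. *Tnfsf11* was the 1 gene past it lower, against 11.8% of genes, with 4 of 229 positive and 54 of 1160 negative cells. Without thinning its ratio was 0.15, so its direction depended on the thinning.

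In wild-type CD8 T cells *Tnfrsf4* was the receptor that went with *Tnfrsf9*. The thinned cells comprised 105 positive and 769 negative ones, and *Tnfrsf4* was found in 14.3% and 6.37% of them, a difference of 7.91 points (2.14 to 16.0). Its log2 ratio of 2.29 (1.77 to 2.79) ranked 5 of 7337 genes, on 56 UMIs in 15 positive cells and 84 UMIs in 49 negative cells. It did not rise stepwise with *Tnfrsf9*. *Tnfrsf4* had 40 UMIs in the 80 cells with 1 *Tnfrsf9* UMI, 0 in the 17 cells with 2, and 16 in the 8 cells with 3 or more. The other receptors gave 0.33 for *Cd27* (-0.02 to 0.67), 0.31 for *Tnfrsf18* (-0.43 to 0.99) and 0.25 for *Tnfrsf1b* (-0.51 to 0.94), each with an interval that includes 0. Of 6 genes with enough UMIs, 2 were past 1.5-fold higher, against 15.5% of genes, and 1 lower, against 19.8%. The second gene past it higher was *Tnfsf11*, on 4 positive and 17 negative cells, with an interval of -0.83 to 2.42. The lower one was *Tnfsf8*, on 4 positive and 55 negative cells, at -1.52 (-3.43 to -0.11).

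The knockout CD8 T cells held 48 *Tnfrsf9*-positive thinned cells and 1136 negative ones, too few to place most genes. *Tnfrsf4* was found in 3 positive cells (6.25%) and 59 negative ones (5.19%), a difference of 1.06 points (-3.29 to 11.7). *Tnfsf11* had the widest difference, with 7 positive cells (14.6%) and 21 negative ones (1.85%), a difference of 12.7 points (5.34 to 25.3) and a log2 ratio of 2.67 (1.22 to 3.91). With *Tnfsf8*, 2 of 6 genes were past 1.5-fold higher, against 21% of 8085 genes, and 0 were lower, against 27.4%. These few cells give no order between the genes.

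**Figure D3:**
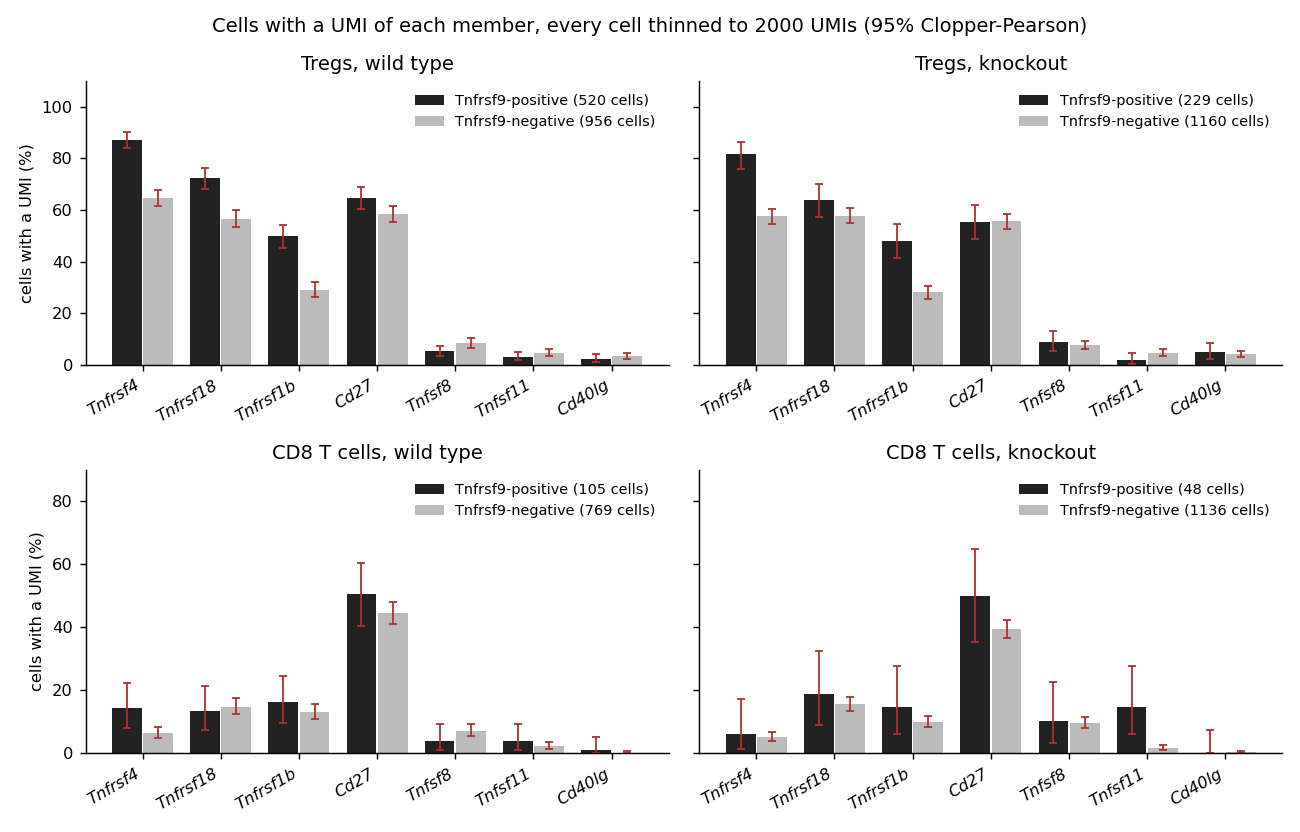
Percentage of cells with a UMI of each of the 7 other genes (vertical axis, from 0) in Tnfrsf9-positive (black) and Tnfrsf9-negative (grey) cells thinned to 2000 UMIs, in Tregs (top) and CD8 T cells (bottom) of the wild-type and knockout library, with 95% Clopper-Pearson intervals. In Tregs of both libraries the black bars of Tnfrsf4 (87.3% and 81.7%) and Tnfrsf1b (49.8% and 48.0%) stand above the grey ones.

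Within Tregs *Tnfrsf4*, *Tnfrsf1b* and *Tnfrsf18* were graded with the number of *Tnfrsf9* UMIs per thinned cell. In wild-type Tregs *Tnfrsf4* stood at 905 CPM in the 956 cells with 0 *Tnfrsf9* UMIs, 1657 in the 281 cells with 1, 2277 in the 112 cells with 2 and 2866 in the 127 cells with 3 or more. The 4 intervals do not overlap. *Tnfrsf1b* stood at 219, 389.7, 459.8 and 579 CPM, and *Tnfrsf18* at 485, 733, 745.5 and 1118 CPM. For both, the cells with 1 and with 2 *Tnfrsf9* UMIs have overlapping intervals, as do those of *Tnfrsf1b* with 2 and with 3 or more, and the cells with 0 lie below every other group. *Tnfsf8* was lowest at the top of this scale, at 92.05 CPM (78.95 to 107) with 0 and 23.6 CPM (8.67 to 51.4) with 3 or more. *Cd40lg* had 38 UMIs in the cells with 0 and none in the 127 cells with 3 or more, where the exact Poisson upper bound is 14.5 CPM.

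In knockout Tregs *Tnfrsf4* stood at 808 CPM with 0 *Tnfrsf9* UMIs, 1406 with 1, 1413 with 2 and 3306 with 3 or more. The last of these groups held only 18 cells, and the intervals of the groups with 1 and with 2 overlap, so without those 18 cells the only step is from 0 to 1. At 0 *Tnfrsf9* UMIs, *Tnfrsf4* was lower in the knockout (772 to 846) than in the wild type (863 to 949), while *Tnfrsf18* (487 against 485) and *Tnfrsf1b* (205 against 219) had overlapping intervals. *Tnfsf8* was also lower there, at 65.5 CPM (55.5 to 76.8), below the wild-type interval. A cell with 0 thinned UMIs can still hold *Tnfrsf9* RNA. Unthinned and thinned shares with a *Tnfrsf9* UMI were 50.2% and 35.2% in wild-type Tregs, and 29.6% and 16.5% in knockout Tregs. The knockout itself lowers *Tnfrsf9* UMIs, so the groups at 0 are not matched sets of cells between the libraries.

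**Figure D4:**
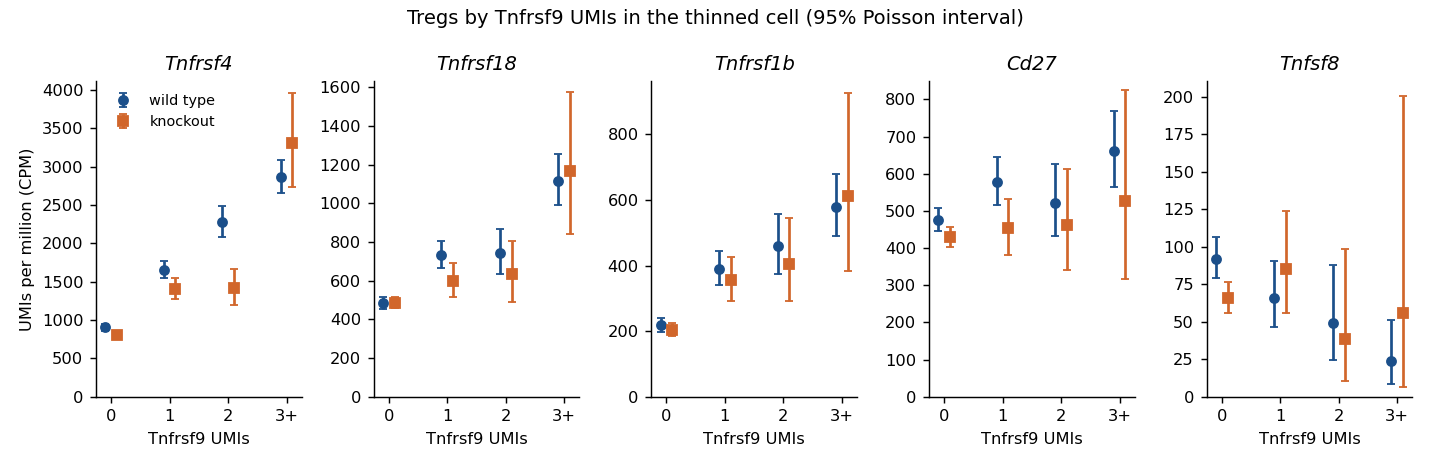
Level of 5 of the genes in CPM (vertical axes, from 0) in Tregs grouped by their number of Tnfrsf9 UMIs after thinning to 2000 UMIs (horizontal axis), in the wild-type (blue) and knockout (orange) library, with 95% Poisson intervals. Wild-type Tnfrsf4 runs from 905 at 0 to 2866 at 3 or more Tnfrsf9 UMIs, and the knockout point at 3 or more rests on 18 cells.

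Most Tregs carried RNA of several of these receptors at once. After thinning, 17.3% of wild-type Tregs had a UMI of all 4 other receptors and 6.30% had none of them, against 10.8% and 7.70% of knockout Tregs. Among *Tnfrsf9*-positive wild-type Tregs 28.3% had all 4, and among negative ones 11.3%. The mean number of the 7 other genes detected was 2.85 in positive and 2.25 in negative cells. *Tnfrsf4* or *Tnfrsf18*, the neighbouring genes on chromosome 4, were found in 93.65% of positive and 79.2% of negative wild-type Tregs. In CD8 T cells 38.3% of wild-type and 43.3% of knockout cells had none of the 4 receptors, and 0.229% and 0 had all 4.

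*Tnfsf8* and *Tnfrsf1b* were found together in few Tregs. A *Tnfsf8* UMI was found in 9 of the 536 wild-type Tregs with *Tnfrsf1b* (1.68%) and in 10.3% of those without it, a difference of -8.64 points (-10.9 to -6.32). In the knockout it was found in 4.37% and 9.22%, a difference of -4.86 points (-7.39 to -1.97). *Tnfrsf18* was found in 41.5% of *Tnfsf8*-positive and 63.8% of *Tnfsf8*-negative wild-type Tregs, a difference of -22.3 points (-31.55 to -12.4), and in 53.3% and 59.2% of knockout Tregs, a difference of -5.93 points whose interval includes 0 (-15.7 to 3.64). *Cd40lg* was found in 8 of 106 *Tnfsf8*-positive wild-type Tregs (7.55%) and in 2.56% of the negative ones, a difference of 4.99 points (1.19 to 11.7), against 3.58 points in the knockout (-0.26 to 10.2). In knockout CD8 T cells *Tnfrsf4* was found in 16.7% of *Tnfsf8*-positive and 4.02% of negative cells, a difference of 12.65 points (6.76 to 20.6). In wild-type CD8 T cells the shares were 10.2%, on 6 cells, and 7.12%, a difference of 3.05 points (-2.72 to 13.5).

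The genes most like *Tnfrsf9* were ranked by the log2 ratio of positive over negative thinned cells, among genes with at least 50 thinned UMIs. In wild-type Tregs the first of 6567 genes was another receptor of the family, *Tnfrsf8* (CD30, the receptor for the *Tnfsf8* product), at 1.77 (1.08 to 2.49) on 52 and 28 UMIs. *2310015A10Rik*, *Tnip3*, *Penk*, *Slc16a3*, *3110009E18Rik*, *Tarbp2*, *Il1r2*, *Nr4a1* and *St6galnac4* completed the first 10, between 1.62 and 1.43. Among them *Nr4a1* is an early response gene of antigen receptor signaling, and *Il1r2* encodes a decoy receptor for interleukin 1. *Tnfrsf4* ranked 23, *Tnfrsf1b* 49, *Tnfrsf18* 156 and *Cd27* 1297, while *Tnfsf11*, *Cd40lg* and *Tnfsf8* ranked 5575, 6159 and 6428. Of 8 further family receptors with at least 20 thinned UMIs, only *Tnfrsf8* was past 1.5-fold higher, against 8.67% of genes. Past it lower were 2, against 8.99%, with *Tnfrsf26* at -1.27 (-2.22 to -0.42). In knockout Tregs 1 of 10 was higher, against 9.47%, and 4 were lower, against 11.8%. There *Tnfrsf8* stood at 0.93 (-0.04 to 1.81). In wild-type CD8 T cells *Xcl1*, a chemokine that attracts cross-presenting dendritic cells, was the first of 4651 genes at 2.76 (2.58 to 2.94). *Tnfrsf4* was the second, followed by *Zfp444*, *Chchd4*, *Cdk6*, *Bcl2l11*, *St6galnac4*, *Ppa1*, *Hivep3* and *Uck1*, between 1.65 and 1.36. The genes after *Tnfrsf4* rest on 13 to 31 UMIs in positive cells, with wide intervals such as 0.33 to 2.31 for *Uck1*. Their order is thus loose.

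Tregs in which a *Foxp3* UMI remained after thinning numbered 85 for the wild type and 132 for the knockout. Against Tregs without one, wild-type cells had lower *Tnfrsf9*, at -0.48 on the log2 scale (-0.95 to -0.05), and lower *Tnfrsf4*, at -0.35 (-0.57 to -0.13), and higher *Tnfsf8*, at 0.93 (0.26 to 1.54). In the knockout the intervals of *Tnfrsf9* (0.11, -0.45 to 0.62), *Tnfrsf4* (0.13, -0.06 to 0.31) and *Tnfsf8* (-0.47, -1.41 to 0.34) include 0. The split therefore gave no shared direction for these genes.

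The partners of the 8 genes were sparse in the same cells. *Tnfsf9*, the CD137 ligand, had 36 to 56 UMIs per class, at 4.68 to 6.30 CPM. *Tnfsf4*, the OX40 ligand, had 156 UMIs in wild-type and 103 in knockout CD8 T cells (22.2 and 13.0 CPM) but 5 and 4 in Tregs. It was lower in knockout CD8 T cells, at a log2 ratio of -0.77 (-1.15 to -0.40). *Tnfsf18*, the GITR ligand, and *Cd70*, the CD27 ligand, had at most 2 UMIs in any class. *Tnf*, which TNFR2 binds, stood at 11.5 and 13.4 CPM in wild-type and knockout Tregs and 17.5 and 24.8 CPM in CD8 T cells. On the receptor side, *Tnfrsf8* stood at 25.1 and 21.6 CPM in Tregs and 9.84 and 12.4 CPM in CD8 T cells, and *Cd40* and *Tnfrsf11a* had at most 26 and 11 UMIs in any class.

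Among 23 further receptors of the family, 14 had enough UMIs in the wild-type lineage comparison, and 8 of these were past 1.5-fold higher and 1 lower in Tregs, against 19.4% and 8.78% of all genes. In the knockout 3 of 13 were higher and 0 lower, against 17.5% and 8.39%. In the wild type *Tnfrsf13b* (TACI) stood at a log2 ratio of 2.13 (1.81 to 2.48), *Tnfrsf25* (DR3) at 1.73 (1.23 to 2.25) and *Tnfrsf8* at 1.35 (0.96 to 1.76), and *Fas*, the death receptor, was the lower one at -0.70 (-0.87 to -0.54). Of 15 further ligands 9 were compared, with 1 higher and 6 lower in wild-type Tregs, and 1 higher and 5 lower in those of the knockout. In the wild type *Ltb*, the lymphotoxin β chain, was higher at 0.82 (0.77 to 0.87). The lower ones of the wild type included *Fasl* at -4.02 (-4.80 to -3.33), *Tnfsf14* (LIGHT) at -1.98 (-2.66 to -1.34) and *Tnfsf10* (TRAIL) at -0.82 (-1.07 to -0.58). In the knockout *Ltb* stood at 0.19 (0.14 to 0.23), short of 1.5-fold. The higher ligand there was another, on 17 and 8 UMIs, with an interval of -0.25 to 2.46.

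The 8 TRAF and cIAP genes, whose products carry the signal of these receptors, were all measured. In the wild type 6 of 8 were past 1.5-fold higher in Tregs, against 19.4% of all genes, from *Traf4* at 0.64 (0.31 to 0.98) to *Birc3* at 1.51 (1.35 to 1.67), with *Traf1* at 0.97 (0.85 to 1.09) and *Traf3* at 1.12 (0.98 to 1.25). In the knockout 3 of 8 were, against 17.5%, namely *Traf1*, *Traf3* and *Birc3*, at 0.64, 0.81 and 1.05. None was lower in either library.

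Between genotypes, 5 of 13 further receptors were past 1.5-fold higher and 0 lower in knockout CD8 T cells, against 13.7% and 8.2% of all genes. *Tnfrsf10b*, a TRAIL receptor, stood at 1.69 (0.87 to 2.58) on 58 and 16 UMIs, and *Tnfrsf26* at 0.76 (0.42 to 1.11). Of 9 ligands 3 were past it lower, among them *Fasl* at -0.77 (-1.07 to -0.47), and of the 8 TRAF and cIAP genes *Birc2* was past it higher at 1.19 (0.99 to 1.40). In Tregs 1 of 14 receptors was past it in each direction, 1 of 8 ligands was higher and none of the TRAF and cIAP genes was past it, against 6.93% of all genes higher and 3.62% lower. Among the TRAF and cIAP genes, 2 of 8 were past 1.5-fold higher in *Tnfrsf9*-positive wild-type Tregs, against 8.67% of all genes, *Traf2* at 0.63 (0.16 to 1.09) and *Traf4* at 0.91 (0.25 to 1.58).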

How the data were processed

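The authors deposited 1 matrix of UMI counts per library, whole numbers for 27998 genes and 2804 (wild type) or 2991 (knockout) barcodes, not normalized; the submitters' processing notes name Cell Ranger 7.0.0 and mm10, and whether intronic reads were counted is not given in the sources used here. Each library pools 6 mice, so the spread between mice was not measured, and the intervals (95%, exact Poisson, Clopper-Pearson, Newcombe and exact conditional) cover counting error only. The exact Poisson and exact conditional ones take UMIs as independent, so the spread between cells is left out too. The filter on cells (200 to 5000 genes detected, mitochondrial share of 20% or less) left 2714 and 2915. Counts were summed per lineage and genotype and divided by the class total. Genes with at least 20 summed UMIs were compared, 1.5-fold was the threshold, and a count of 0 was set to 0.5 in ratios. For co-expression each cell was thinned to 2000 UMIs with a fixed seed. No doublet caller was run, and leaving out the 5% of cells with the most UMIs was an alternative. A planned restriction of the cells by a further gene list is not reported here.

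The members and gene lists were chosen with earlier results of these data known. Named beside the 8 members were genes of the family lists past 1.5-fold with at least 50 UMIs (of which the text gives examples), their binding partners, and the 10 genes most like *Tnfrsf9* with at least 50 thinned UMIs. Gene positions are from GENCODE vM21 (27645 of 27998 identifiers matched) and promoter sequences from RefSeq GRCm38.p6, which gave none for *Cd40lg*. The interval code was tested on simulated data: 95.5% of intervals covered the true ratio over 11330 genes for knockout against wild-type Tregs, 95.9% over 11056 genes for wild-type Tregs against CD8 T cells, and 100% of genes changed 3-fold were recovered in each. The simulated sums were Poisson draws without spread between cells, so the coverage checks the code only. The changed genes were drawn from those with at least 100 UMIs. Python 3.11.15, numpy 2.4.6, scipy 1.17.1, pandas 2.3.3, matplotlib 3.10.9 and R 4.3.3 were used, with edgeR 4.0.16 for TMM factors alone.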

Additional observations from a re-analysis of the deposited data

Results flagged for a closer look

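In summed UMIs, *Tnfsf8* differed between the genotypes in opposite directions in the lineages. The log2 ratio of knockout over wild type was -0.21 in Tregs and 0.67 in CD8 T cells. Each has an interval without 0, but these intervals take UMIs as independent. The 10 cells with the most *Tnfsf8* UMIs held 26.6% of them in wild-type and 35.4% in knockout Tregs. In CD8 T cells they held 34.3% and 15.8%. The thinned share of Tregs was not lower in the knockout, at 7.18% for the wild type and 7.70% for the knockout. For CD8 T cells it was 6.75% and 9.63%. The intervals overlap in each lineage, which does not show that the shares are equal. The difference between the lineages was not tested, since each genotype has 1 library. In CD8 T cells the ratio was 0.23 without cells that had 2 or more proliferation UMIs and 0.49 with equal weight per cell. In Tregs it was -0.05 without such proliferating cells and -0.77 in cells with a *Foxp3* UMI.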

How the results depend on the processing

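No paired analysis was possible because each genotype has 1 library, and no replicate was left out. Of 207 alternative values of the counts of genes past the threshold and of the *Tnfrsf9* ratio, 170 stayed close to the value given, 37 moved and 0 reversed. Of 513 for single genes, 432 stayed close, 80 moved and 1 reversed. The cause of the moves was not tested.

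Between genotypes in CD8 T cells, where 1 gene was past 1.5-fold higher, the count was 0 with equal weight per cell, with a filter of 500 to 4000 genes and a mitochondrial share of 10% or less, with the lineage set by the majority of lineage UMIs, without the 5% of cells with the most UMIs, at a threshold of 2-fold, and without cells with 2 or more proliferation UMIs. The count of 2 lower became 1 with no filter on cells and at 2-fold, and 3 with the majority rule. In Tregs the count of 0 higher became 1 with the majority rule, in Tregs with a *Foxp3* UMI and without the barcodes in both libraries, and the count of 1 lower became 2 in Tregs with a *Foxp3* UMI. *Tnfrsf9* in Tregs stood at -1.37 in those with a *Foxp3* UMI. In CD8 T cells it stood at -2.11 without cells with 2 or more proliferation UMIs.

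Between lineages, the wild-type count of 8 higher became 7 with the filter of 500 to 4000 genes and without the 5% of cells with the most UMIs. It became 6 with the majority rule and, of 7 tested, in Tregs with a *Foxp3* UMI, and 5 at 2-fold. The knockout count of 6 higher became 5 with the majority rule and at 2-fold. It became 7 with equal weight per cell, with that filter and without those 5% of cells. The knockout count of 0 lower became 1 in Tregs with a *Foxp3* UMI. For *Tnfrsf9*-positive against negative wild-type Tregs, 3 higher became 1 without thinning. There 1 lower became 0 at 2-fold, 2 when thinned to 1000 UMIs and without thinning, and 3 when positive meant 2 or more UMIs. In knockout Tregs 2 higher became 1 in those with a *Foxp3* UMI and without thinning, and 0 at 2-fold. There 1 lower became 0 in those with a *Foxp3* UMI, when thinned to 1000 UMIs and without thinning, and 2 when positive meant 2 or more UMIs. In wild-type CD8 T cells 2 higher became 1 with at least 50 UMIs, at 2-fold and without thinning. In knockout CD8 T cells 2 higher became 6 with the majority rule and 1 with at least 50 UMIs, at 2-fold and when thinned to 1000 UMIs, and 0 lower became 1 when thinned to 1000 UMIs and 2 when positive meant 2 or more UMIs.

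The 1 reversed value was *Tnfsf11* in *Tnfrsf9*-positive knockout Tregs at 0.15 without thinning. In wild-type and knockout CD8 T cells *Cd40lg* rests on 9 and 8 UMIs and *Tnfsf11* on 92 and 128, which limits their comparisons. *Tnfsf8* had 268 and 482 UMIs there. Only 4 and 11 thinned *Tnfsf8* UMIs lay in *Tnfrsf9*-positive CD8 T cells, which limits its co-expression values.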
